A study of Mus musculus with 4 samples.

Results

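The genes described here are those of the neurons of the cranial ganglia, read in RNA of the first pharyngeal arch. The list holds 36 gene symbols, chosen by name: neurogenic transcription factors, neuronal RNA-binding proteins, cytoskeletal and axonal proteins, and receptors. Of these, 35 were symbols of the deposited table, 28 had a mean normalized read count of at least 10 over the 4 libraries and were tested, and 7 were below it. The table held 52459 genes, of which 16746 were tested. The 1 symbol without a row was Drg11, an older name of Prrxl1. The normalized read count is the number of reads of a gene divided by a size factor of the library. Just above the minimum were Stmn3, Elavl3 and Ntrk3, with means of 14.0, 14.6 and 14.8, and just below it were Onecut1 and Nhlh1, with means of 7.99 and 3.05.

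Wnt1-Cre;pMes-Bmp4 embryos (2 libraries) were compared with wild-type embryos (2 libraries), all at E9.5-E9.75 with 25 to 27 somites. Wnt1-Cre is a Cre recombinase of the neural crest lineage and of the dorsal neural tube, and pMes-Bmp4 is a Bmp4 transgene that Cre switches on. Neither transgene was sampled by itself, so raised Bmp4 and the presence of the transgenes cannot be told apart. The labels do not say how many embryos or litters gave a library, so p-values reflect the spread among these 4 libraries alone, which may be technical.

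Sensory neurons of the trigeminal ganglion, which innervates the arch, arise from the trigeminal placode and from neural crest, while the glia of the ganglion come from crest. Proneural basic helix-loop-helix (bHLH) factors start neurogenesis, Neurod and Ebf factors carry differentiation on, and homeobox factors such as Pou4f1 set the sensory identity. Young neurons then switch on RNA-binding proteins, tubulins, stathmins and neurofilaments, extend axons, and come to depend on neurotrophins that act on Trk receptors. BMP signals take part in placode and crest development at several of these steps.

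The Wnt1-Cre;pMes-Bmp4 libraries held 31404494 and 29607541 reads in genes, and the wild-type libraries 47849092 and 33763574. Bmp4 was at 2656 and 1745 normalized reads in Wnt1-Cre;pMes-Bmp4, against 682 and 437 in wild-type, with a limma adjusted p of 0.0211. At these depths 1 library's floor of 3 counts stood at 2.23 to 3.64 normalized reads, which covers counting error only. In RNA of whole arches, fewer neurons and less RNA per neuron cannot be told apart.

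Neuron genes made up a small part of the arch RNA and, apart from Ntrk2, no gene of the list passed the test between the genotypes. The 28 genes summed to 7563 and 6963 normalized reads in Wnt1-Cre;pMes-Bmp4, against 8967 and 9126 in wild-type. Gap43 made up a large part of these sums. Without Gap43 they were 4188 and 3492 in Wnt1-Cre;pMes-Bmp4, against 4762 and 4941 in wild-type. The 26 genes with a mean under 1000, which leave out Gap43 and Ebf2, summed to 3221 and 2660, against 3534 and 3633. Ebf1 and Ebf3, still among these, are also expressed in mesenchyme. Of 28 genes tested, 1 was higher in Wnt1-Cre;pMes-Bmp4, 0 were lower and 27 did not pass at a limma adjusted p under 0.05. Among all 16746 genes 8.25% passed, 2.97% in the higher and 5.28% in the lower direction. At an unadjusted limma p under 0.05, 2 of the 28 were higher and 5 lower, against 13.4% and 15.3% of all genes. The median log2 fold change was -0.30 over the 28 genes and 0.02 over all genes tested, with 20 of the 28 negative. Both Wnt1-Cre;pMes-Bmp4 libraries lay above both wild-type libraries in 4 genes and below them in 10, and in 14 the groups overlapped. Neurog2 and Stmn3, among the 4, had wild-type means of 4.28 and 9.31. Both reached the minimum of 10 only through the transgenic libraries. Neurog2 was also 1 of the 2 higher at an unadjusted limma p under 0.05. Groups that did not overlap were seen in 59.7% of all genes, 30% higher and 29.7% lower. The 28 genes were lowly expressed, with a median mean of 65.2 normalized reads against 324.5 over all genes, and their standard errors were wider, with a median of 0.36 against 0.23 on the log2 scale. DESeq2 on the recovered reads, which gave an adjusted p for 23 of the 28, called Ntrk2 higher, beside 8.72% of all genes, and Ebf2 and Ebf3 lower, beside 11.1%, or 19.8% in either direction. Without Wnt1-Cre;pMes-Bmp4 replicate 1, limma called 1 of the 28 higher and 6 lower (Cntn2, Elavl4, Onecut2 and the 3 Ebf genes), beside 32.2% of all genes in either direction. Without Wnt1-Cre;pMes-Bmp4 replicate 2 it called 2 higher (Ntrk2 and Neurog2) and 3 lower (Ebf1, Ebf3 and Onecut2), beside 18.5%.

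**Figure D1:**
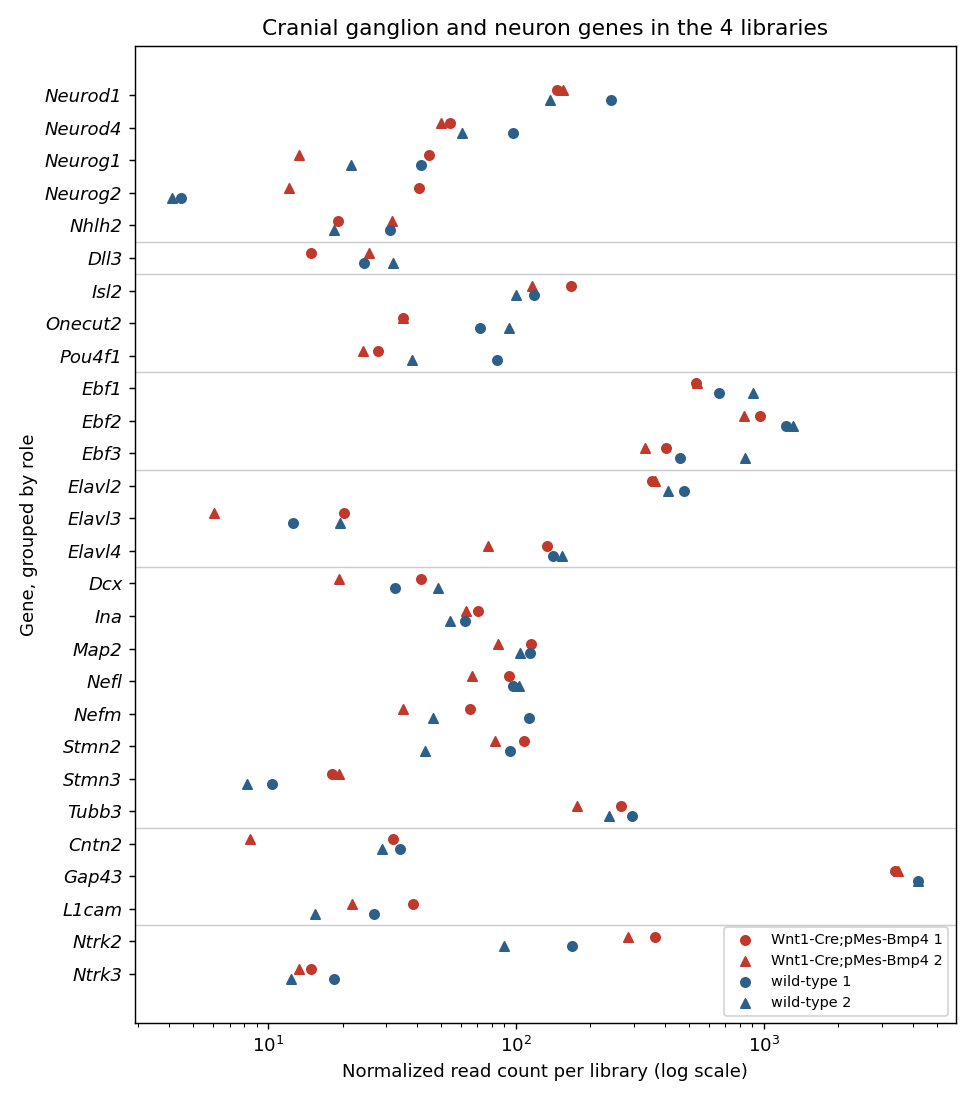
Normalized read count of each of the 28 genes (log axis) in the 2 Wnt1-Cre;pMes-Bmp4 libraries (red) and the 2 wild-type libraries (blue), with circles for replicate 1 and triangles for replicate 2. Ntrk2 stood at 364 and 285 in Wnt1-Cre;pMes-Bmp4, to the right of 169 and 89.5 in wild-type. The groups overlapped in 14 of the 28 genes and did not overlap in the other 14, or 50%, beside 59.7% of all genes.

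Ntrk2, which encodes the BDNF and NT-4 receptor TrkB, rose. Its normalized read count was 364 and 285 in Wnt1-Cre;pMes-Bmp4, against 169 and 89.5 in wild-type. Both transgenic libraries were above both wild-type libraries, and the wild-type libraries differed 1.89-fold from each other. The means were 324 ± 55.7 in Wnt1-Cre;pMes-Bmp4 and 129 ± 56.3 in wild-type (SD, n = 2 each). The log2 fold change was 1.38 ± 0.33 (SE), a 2.6-fold difference, and the limma adjusted p of 0.0494 was close to the threshold. Over 16 alternatives the log2 fold change ran between 0.92 and 1.93, the adjusted p between 8.63e-06 and 0.42, and 11 kept the call. The alternatives include fits with 1 library left in a genotype. Without wild-type replicate 1 the log2 fold change of Ntrk2 was 1.83, and without wild-type replicate 2 it was 0.92. Ntrk2 passed in neither fit, but almost no gene did. These fits therefore cannot tell whether the call of Ntrk2 depends on 1 wild-type library. Ntrk2 spans chr13:58806569-59133970 on the plus strand of GRCm38. TrkB has full-length and truncated forms, and counts per gene cannot separate them.

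The other genes of neurotrophin signalling did not pass. These genes were picked after the values of Ntrk2 were known. Of the 9 tested Ntrk2 was the 1 that passed, beside 8.25% of all genes. At an unadjusted limma p under 0.05 there were 3 (Ntrk2, Ngfr and Sort1), beside 28.8% of all genes. Sort1 was lower in both transgenic libraries than in both wild-type libraries (log2 fold change -0.65, limma adjusted p 0.123). Bdnf, the main ligand of TrkB, was at 178 and 196 normalized reads in Wnt1-Cre;pMes-Bmp4, against 138 and 120.3 in wild-type (log2 fold change 0.53, limma adjusted p 0.191). The groups of Bdnf did not overlap. Ntf5, which encodes the other TrkB ligand NT-4, was at 244 and 200.1 in Wnt1-Cre;pMes-Bmp4, against 283 and 191 in wild-type. Ntf3, the ligand of TrkC, was at 1107 and 1097 in Wnt1-Cre;pMes-Bmp4, against 1096 and 1156 in wild-type. Its receptor gene Ntrk3 was near the minimum, at 14.9 and 13.3 in Wnt1-Cre;pMes-Bmp4, against 18.5 and 12.3 in wild-type. The groups overlapped for both Ntf3 and Ntrk3. Ngfr, the shared low-affinity receptor p75, was at 6.4 and 8.49 in Wnt1-Cre;pMes-Bmp4, against 16.3 and 43.2 in wild-type, a difference that missed the threshold (log2 fold change -1.72, limma adjusted p 0.142).

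Neurog1 and Neurog2 are the proneural factors of the cranial placodes. In mouse, Neurog1 is needed for the trigeminal ganglion and Neurog2 for epibranchial ganglia. Neurog2 was at 40.5 and 12.1 normalized reads in Wnt1-Cre;pMes-Bmp4, against 4.45 and 4.11 in wild-type. These values rest on 38 and 10 reads in Wnt1-Cre;pMes-Bmp4 and on 6 and 4 in wild-type. Both transgenic libraries were above both wild-type libraries, but the transgenic libraries differed 3.34-fold from each other. The wild-type mean of Neurog2, 4.28, was under the minimum of 10, so the gene was tested only because its transgenic values were high. The 95% exact Poisson interval of Wnt1-Cre;pMes-Bmp4 replicate 2, from 5.81 to 22.3, overlapped those of wild-type, from 1.63 to 9.69 and from 1.12 to 10.5, while that of replicate 1, from 28.7 to 55.6, did not. These intervals cover counting error only. The log2 fold change of Neurog2 was 2.14 ± 0.77 (SE), the largest of the 28 genes in the test as deposited, and it did not pass (limma adjusted p 0.12). Without Wnt1-Cre;pMes-Bmp4 replicate 2, which left 1 transgenic library, the log2 fold change of Neurog2 was 2.98. With replicate 1 of that genotype left out instead, the log2 fold change was 1.31. Neurog1 was at 44.8 and 13.3 in Wnt1-Cre;pMes-Bmp4, against 41.5 and 21.6 in wild-type (log2 fold change -0.28 ± 0.66 SE). The groups of Neurog1 overlapped.

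The sequences upstream of 4 of these genes are shown because they are the receptor that passed, the pair of paralogous proneural genes that gave different values, and the sensory homeobox gene described next. They are the 250 bases before the RefSeq start on GRCm38.p6, 5′ to 3′ on the gene's strand. Capitals mark CAGATG, an E-box of the kind Neurog and Neurod factors bind, CAGCTG, another E-box, and GGCGCC, a GC-rich element of BMP-responsive Smads, each searched on both strands, so that CAGATG may read CATCTG.
Ntrk2 (chr13:58806319-58806568, plus strand): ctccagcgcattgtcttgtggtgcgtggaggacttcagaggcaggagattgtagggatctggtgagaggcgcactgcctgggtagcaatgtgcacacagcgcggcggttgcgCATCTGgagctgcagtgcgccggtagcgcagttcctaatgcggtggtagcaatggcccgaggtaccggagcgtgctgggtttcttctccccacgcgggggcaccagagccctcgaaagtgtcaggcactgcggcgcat
Neurog2 (chr3:127632886-127633135, plus strand): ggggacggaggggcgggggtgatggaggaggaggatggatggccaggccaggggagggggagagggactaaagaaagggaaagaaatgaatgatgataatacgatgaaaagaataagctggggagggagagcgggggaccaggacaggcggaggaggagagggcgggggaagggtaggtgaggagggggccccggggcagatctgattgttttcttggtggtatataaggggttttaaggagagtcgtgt
Neurog1 (chr13:56252181-56252430, minus strand): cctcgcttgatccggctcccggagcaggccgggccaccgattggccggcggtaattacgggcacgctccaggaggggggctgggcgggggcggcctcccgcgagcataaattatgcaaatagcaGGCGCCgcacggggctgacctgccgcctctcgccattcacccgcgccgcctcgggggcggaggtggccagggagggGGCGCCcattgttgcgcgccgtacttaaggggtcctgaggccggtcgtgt
Pou4f1 (chr14:104468000-104468249, minus strand): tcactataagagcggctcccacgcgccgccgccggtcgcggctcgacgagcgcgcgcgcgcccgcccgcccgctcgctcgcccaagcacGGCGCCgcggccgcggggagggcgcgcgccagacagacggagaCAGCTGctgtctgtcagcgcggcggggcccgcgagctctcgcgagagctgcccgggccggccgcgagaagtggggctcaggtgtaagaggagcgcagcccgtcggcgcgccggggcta
The Ntrk2 window held 1 CAGATG match starting 138 bases before the start. The Neurog1 window held 2 GGCGCC matches, the Pou4f1 window 1 GGCGCC and 1 CAGCTG, and the Neurog2 window 0 of the searched letters. Of the 28 genes 21 had a promoter in the RefSeq table, and CAGATG was found in 4 of them, CAGCTG in 4, GGCGCC in 3, the Ebf palindrome in 0 and TATAAA in 2. Among 10931 promoters of genes tested these letters were found in 9.71%, 11.4%, 16.9%, 0.933% and 6.24%. None of the motifs overlapped another in the printed windows. A match of letters is a description and does not show binding.

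The bHLH factors that act after the neurogenins did not pass either. Neurod1, which drives sensory neuron differentiation, was at 147 and 155 in Wnt1-Cre;pMes-Bmp4, against 242 and 138 in wild-type. The wild-type libraries lay on either side of the transgenic ones. Neurod4, a related differentiation factor, was at 54.4 and 49.7 in Wnt1-Cre;pMes-Bmp4, against 97.2 and 60.7 in wild-type, groups that did not overlap (log2 fold change -0.55, limma adjusted p 0.354). Nhlh2, a bHLH gene of young neurons, was at 19.2 and 31.5 in Wnt1-Cre;pMes-Bmp4, against 31.2 and 18.5 in wild-type. Dll3, an atypical Notch ligand of newly committed neurons and of the presomitic mesoderm, was at 14.9 and 25.5 in Wnt1-Cre;pMes-Bmp4, against 24.5 and 31.9 in wild-type. The groups of Nhlh2 and Dll3 overlapped, and their log2 fold changes were 0.03 and -0.50.

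Among the homeobox factors, Pou4f1 and Onecut2 were lower in both transgenic libraries without passing. Pou4f1 (Brn3a), which sensory ganglion neurons need for their identity and survival, was at 27.7 and 24.2 in Wnt1-Cre;pMes-Bmp4, against 83.8 and 38.1 in wild-type. The 2.2-fold difference between the wild-type libraries was close to the difference between the groups, whose log2 fold change was -1.10 ± 0.48 (SE, limma adjusted p 0.186). Onecut2, a cut-homeobox factor of several neuron types, was at 35.2 in each of the 2 Wnt1-Cre;pMes-Bmp4 libraries, against 71.9 and 93.6 in wild-type. Onecut2 had a log2 fold change of -1.20 ± 0.35 (SE, limma adjusted p 0.0763), which was -0.44 after a correction for transcript length. Onecut2 passed without either Wnt1-Cre;pMes-Bmp4 library, with limma adjusted p values of 0.0225 without replicate 1 and 0.0344 without replicate 2. Isl2, a LIM-homeobox gene of sensory and motor neurons, was at 166 and 116 in Wnt1-Cre;pMes-Bmp4, against 118 and 99.8 in wild-type. The groups of Isl2 overlapped (log2 fold change 0.36, limma adjusted p 0.453).

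The Ebf factors, helix-loop-helix regulators of neuronal differentiation that are also expressed in mesenchyme, were lower in both transgenic libraries than in both wild-type libraries in 3 of 3 genes, a separation seen in 29.7% of all genes. None of the 3 passed in limma, beside 8.25% of all genes. Ebf1 was at 532 and 539.5 in Wnt1-Cre;pMes-Bmp4, against 659 and 908 in wild-type (log2 fold change -0.53 ± 0.20 SE, limma adjusted p 0.13). Ebf2 was at 967 and 832 in Wnt1-Cre;pMes-Bmp4, against 1228 and 1308 in wild-type (log2 fold change -0.50 ± 0.15 SE, limma adjusted p 0.0842). Ebf3 was at 404 and 332 in Wnt1-Cre;pMes-Bmp4, against 459 and 842 in wild-type (log2 fold change -0.76 ± 0.29 SE, limma adjusted p 0.141). Wild-type replicate 2 was the highest library for each of the 3, and for Ebf3 it was 1.83-fold above wild-type replicate 1. DESeq2 called Ebf2 and Ebf3 lower, with DESeq2 adjusted p values of 0.0316 and 0.0445, and gave 0.0716 for Ebf1. After the length correction the log2 fold changes were -0.20, -0.27 and -0.56 for Ebf1, Ebf2 and Ebf3. Ebf3 and Ebf2 share 355 and 424 exonic bases with the predicted genes Gm45278 and Gm10860 on the opposite strand, and no source says that counting used the strand. Those predicted genes had at most 10.4 and 4.27 normalized reads.

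The neuronal Elavl (Hu) proteins bind and stabilise messenger RNAs of differentiating neurons. Elavl2 was the most abundant of the 3 per length, at 85.9 normalized reads per kilobase of transcript in Wnt1-Cre;pMes-Bmp4 and 106 in wild-type. Its counts were 354 and 366 in Wnt1-Cre;pMes-Bmp4, against 478 and 410.4 in wild-type, with no overlap (log2 fold change -0.30 ± 0.18 SE, limma adjusted p 0.325). Elavl4 was at 133 and 77.6 in Wnt1-Cre;pMes-Bmp4, against 141 and 154 in wild-type, also with no overlap (log2 fold change -0.53, limma adjusted p 0.322). Elavl3, an early pan-neuronal member, was at 20.3 and 6.06 in Wnt1-Cre;pMes-Bmp4, against 12.6 and 19.5 in wild-type. Wnt1-Cre;pMes-Bmp4 replicate 2 was the lowest library for Elavl3 and Elavl4, and replicate 1 of the same group was the highest for Elavl3.

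Of the 8 cytoskeletal genes of neurons tested, 0 passed in limma, beside 8.25% of all genes. Their log2 fold changes were below 0 in 5 and above 0 in 3, and those of 48.7% of all genes were below 0. Tubb3, the class III tubulin that labels neurons, was at 266 and 176 in the transgenic libraries, against 295 and 239 in wild-type. The groups overlapped, and the 95% confidence interval of the log2 fold change of Tubb3, from -0.92 to 0.33, included 0. Stmn2, a stathmin of growing axons, was at 108 and 82.4 in the transgenic libraries, against 94.9 and 43.2 in wild-type (log2 fold change 0.55, limma adjusted p 0.431). Its relative Stmn3 had little signal but separate groups, at 18.1 and 19.4 in the transgenic libraries, against 10.4 and 8.23 in wild-type (log2 fold change 0.95, limma adjusted p 0.322). The wild-type mean of Stmn3, 9.31, was under the minimum of 10, so Stmn3 too was tested through its transgenic values. Ina, the neurofilament protein alpha-internexin, was at 70.4 and 63.0 in the transgenic libraries, against 62.3 and 54.5 in wild-type. The Ina exons share 456 bases with Nt5c2 on the opposite strand, which was at 1817 and 1973 normalized reads in the transgenic libraries, against 1364 and 1306 in wild-type, so the values of Ina are uncertain.

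The light and medium neurofilament genes Nefl and Nefm lie on opposite strands of chromosome 14 and share 1108 exonic bases in the annotation, so their reads cannot be fully separated. Nefl was at 93.9 and 66.7 in the transgenic libraries, against 97.2 and 103 in wild-type. Nefm was at 65.1 and 35.2 in the transgenic libraries, against 113 and 46.3 in wild-type. The groups of Nefl did not overlap and those of Nefm did, and their log2 fold changes were -0.33 and -0.59. Dcx, the microtubule-associated doublecortin of migrating neurons, was at 41.6 and 19.4 in the transgenic libraries, against 32.6 and 48.3 in wild-type. Map2, a microtubule protein of dendrites, was at 115 and 84.9 in the transgenic libraries, against 114 and 104 in wild-type. The groups of both genes overlapped.

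Gap43, a membrane protein of growth cones, was the most abundant of the 28 genes, also per length. Per kilobase it was at 2410 normalized reads in Wnt1-Cre;pMes-Bmp4 and 2954 in wild-type, against 118 and 143 for Tubb3. Which cells gave the Gap43 reads was not tested. Gap43 was at 3374 and 3471 in Wnt1-Cre;pMes-Bmp4, against 4205 and 4185 in wild-type. The replicates lay close together and the groups did not overlap, and Gap43 did not pass (log2 fold change -0.29 ± 0.12 SE, limma adjusted p 0.16). After the length correction Gap43 was at -0.50 and did not pass either (limma adjusted p 0.0813). L1cam, a cell adhesion molecule of axon bundles, was at 38.4 and 21.8 in Wnt1-Cre;pMes-Bmp4, against 26.7 and 15.4 in wild-type. The groups of L1cam overlapped (log2 fold change 0.49, limma adjusted p 0.577), and it shares 100 exonic bases with Arhgap4. Cntn2, the axonal contactin TAG-1, was at 32.0 and 8.49 in Wnt1-Cre;pMes-Bmp4, against 34.1 and 28.8 in wild-type (log2 fold change -0.87 ± 0.66 SE, limma adjusted p 0.422). The 2 transgenic libraries differed 3.77-fold for Cntn2, and its call depended on them. Without Wnt1-Cre;pMes-Bmp4 replicate 1 Cntn2 had a log2 fold change of -1.77 and passed (limma adjusted p 0.0291), and without replicate 2 the log2 fold change was 0.03.

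**Figure D2:**
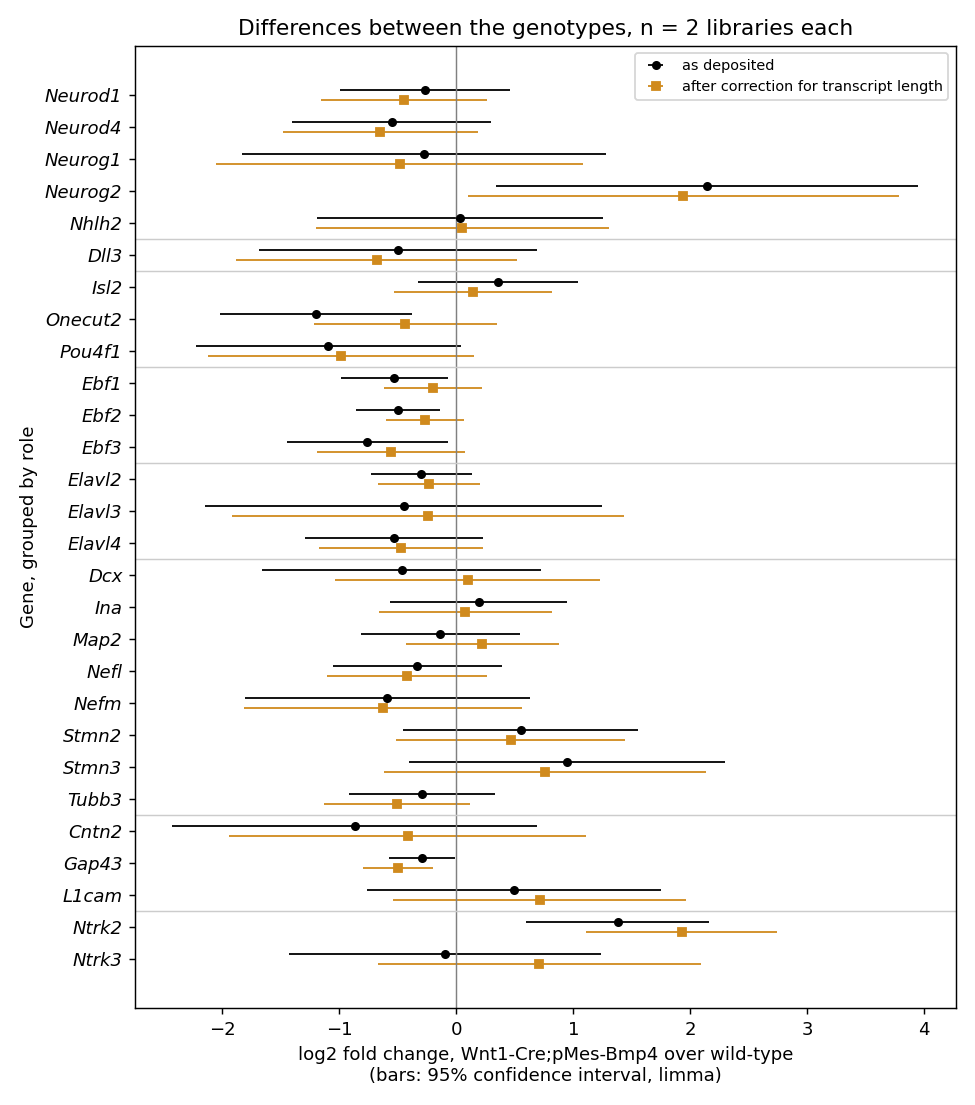
The log2 fold change of each of the 28 genes, Wnt1-Cre;pMes-Bmp4 over wild-type, with its 95% confidence interval from limma (n = 2 libraries each), as deposited (black) and after a correction for transcript length (orange). Ntrk2 is at 1.38 as deposited and 1.93 after the correction. As deposited, its interval and those of 6 other genes (Ebf1, Ebf2, Ebf3, Gap43, Onecut2 and Neurog2) exclude 0 before adjustment. That is 25% of the 28, beside 28.8% of all genes at an unadjusted limma p under 0.05. Neurog2 was tested only through its transgenic values. After the correction the intervals of Ebf1, Ebf2, Ebf3 and Onecut2 include 0.

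The 7 genes below the minimum were Nhlh1, Phox2a, Pou4f2, Tlx3, Onecut1, Prph and Ret, and they were not tested. Their values did not exceed 8.53 normalized reads in Wnt1-Cre;pMes-Bmp4 and 14.1 in wild-type, and the highest was Onecut1. Phox2a, a determinant of autonomic and visceral sensory neurons, was at 4.27 and 0 in the transgenic libraries, against 2.97 and 0 in wild-type. Tlx3, a homeobox gene of glutamatergic sensory relay neurons, was at 2.13 and 0 in the transgenic libraries, against 2.97 and 0 in wild-type. Pou4f2, a relative of Pou4f1, was at 4.27 and 0 in the transgenic libraries, against 5.93 and 0 in wild-type. For these 3 genes replicate 2 of each group had 0 reads and replicate 1 of each group had some. Ret, the receptor of GDNF family ligands, was at 1.07 and 0 in the transgenic libraries, against 5.93 and 4.11 in wild-type, which rests on at most 8 reads. Prrxl1, a homeobox gene of pain-sensing neurons, had 4.27 and 4.85 in the transgenic libraries, against 5.19 and 2.06 in wild-type.

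Libraries of the same genotype differed by over 2-fold in a larger share of the neuron genes than of all genes. The 2 Wnt1-Cre;pMes-Bmp4 libraries or the 2 wild-type libraries differed by over 2-fold, on the log2(value + 1) scale, in 8 of the 28 genes, or 28.6%, against 16% of all genes tested, whose counts were higher. Replicate 1 exceeded replicate 2 in 21 of 28 genes in Wnt1-Cre;pMes-Bmp4, or 75%, and in 19 of 28 in wild-type, or 67.9%. Over all genes tested these shares were 50.4% and 49.2%. In 14 of the 28 genes, or 50%, replicate 1 exceeded replicate 2 in both genotypes, against 19.1% of all genes, and Neurog1, Tubb3, Nefm, Stmn2, L1cam and Ntrk2 were among them. Wnt1-Cre;pMes-Bmp4 replicate 2 was the lowest library for 14 of the 28 genes, or 50%, against 31.5% of all genes, and wild-type replicate 1 was the lowest for 0, against 17.0% of all genes. These shares are descriptions of 4 libraries and were not tested. The labels do not say that a replicate number marks a litter or a day.

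**Figure D3:**
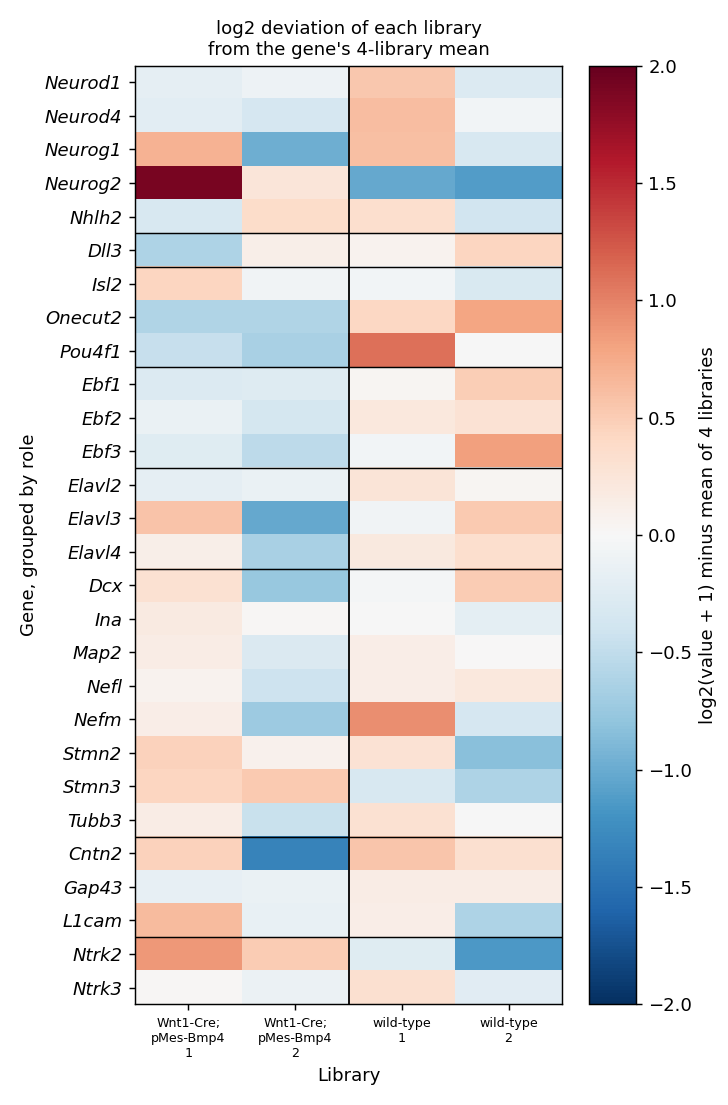
Colour gives each library's log2(value + 1) minus the mean over the 4 libraries, for the 28 genes by role, with the 2 Wnt1-Cre;pMes-Bmp4 libraries left of the 2 wild-type libraries. Wnt1-Cre;pMes-Bmp4 replicate 2 was the lowest library for 14 genes, and Neurog2 was highest in Wnt1-Cre;pMes-Bmp4 replicate 1, at 40.5 normalized reads.

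Transcript length moved with the difference between genotypes over all genes, and the neuron genes had longer transcripts, with a median of 4046 bases against 3056 over all genes tested. Among transcripts under 3000 bases, 8 of the 28 genes had a median log2 fold change of -0.27, against 0.16 over all genes of that length. Among transcripts of 3000 bases to under 5000 bases the medians were -0.43 for 10 of the 28 genes and 0.03 for all genes. Among transcripts of 5000 bases and more they were -0.46 for the other 10 and -0.41 for all genes. After the length correction the median over the 28 genes was -0.25, against 0.01 over all genes. Ntrk2, whose longest transcript has 8744 bases, was then at 1.93 and passed (limma adjusted p 0.0491), beside 1.66% of all genes. Onecut2, with 16234 bases, was at -0.44 (limma adjusted p 0.465). Map2, Ntrk3 and Dcx, also long, had positive values of 0.22, 0.71 and 0.10 after the correction, against -0.14, -0.10 and -0.47 as deposited. The part that length has in each result was not tested beyond this correction.

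**Figure D4:**
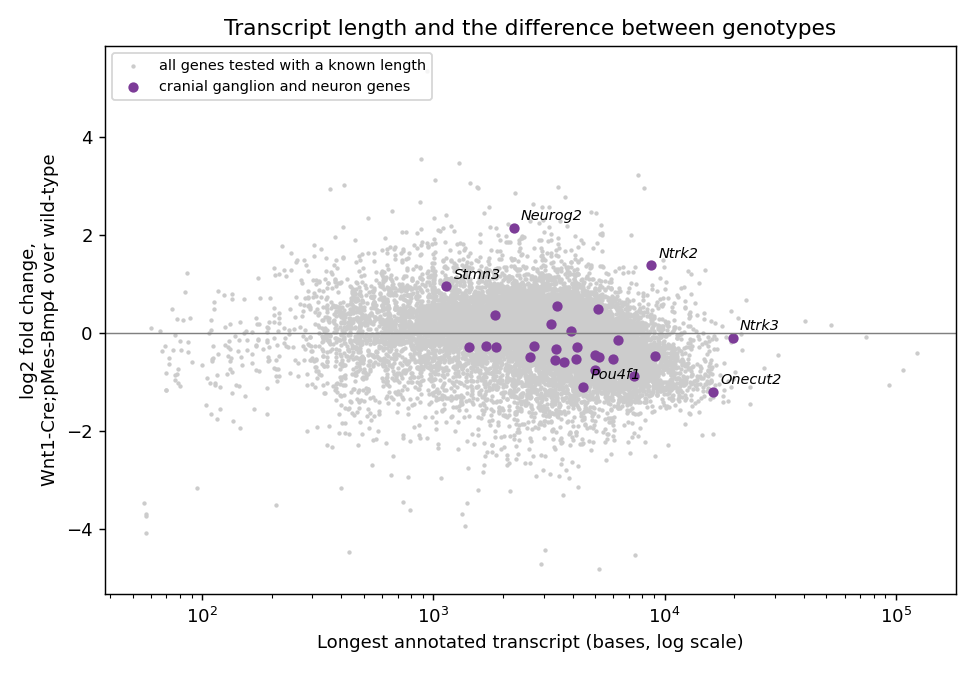
Log2 fold change against the longest annotated transcript (log axis) for all genes tested with a known length (grey) and the 28 neuron genes (purple). Ntrk2 lies at 1.38 with 8744 bases and Onecut2 at -1.20 with 16234 bases.

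Other genes of placodal and neuronal development were read from 3 lists. Of 17 tested genes of placode formation and sensory neurogenesis outside the list of 36, 1 was higher and 2 were lower, beside 2.97% and 5.28% of all genes, with a median log2 fold change of -0.36 against 0.02 over all genes. Isl1, a LIM-homeobox gene of sensory and motor neurons that is also expressed in the distal arch, rose to 1786 and 1667 normalized reads in Wnt1-Cre;pMes-Bmp4, against 827 and 563 in wild-type (log2 fold change 1.34, limma adjusted p 0.0231). Sox11, a SoxC factor of young neurons and of mesenchyme, fell to 5110 and 4376 in Wnt1-Cre;pMes-Bmp4, against 11265 and 14033 in wild-type (log2 fold change -1.41, limma adjusted p 0.0194). Six4, a placodal homeobox gene, fell to 753 and 673 in Wnt1-Cre;pMes-Bmp4, against 1201 and 1303 in wild-type (log2 fold change -0.81, limma adjusted p 0.0301). After the length correction Six4 was at -0.40 and did not pass (limma adjusted p 0.152), while Isl1 and Sox11 passed, at 1.15 and -0.89 (limma adjusted p 0.0459 and 0.0372). The neuronal genes Runx3, Gfra3 and Prrxl1 stayed under the minimum and did not exceed 8.53 normalized reads in any library.

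Of 23 tested pan-neuronal and axon genes outside the list, 0 passed in limma, beside 8.25% of all genes. At an unadjusted limma p under 0.05 there were 5, beside 28.8% of all genes. In edgeR 0 were higher and 1 lower, against 409 and 915 of all 16746 genes. DESeq2 gave an adjusted p for 14 of the 23 and called 0 higher and 2 lower, beside 8.72% and 11.1% of all genes. The median log2 fold change was 0.16, with 13 positive and 10 negative. The smallest p values belonged to Kif5c, a kinesin heavy chain of axonal transport, and Rtn1, a reticulon. Kif5c was at 943 and 826 in the transgenic libraries, against 1274 and 1598 in wild-type (log2 fold change -0.69, limma adjusted p 0.0512), and it was at -0.28 when corrected for length. Rtn1 was at 255 and 314 in the transgenic libraries, against 440 and 474 in wild-type (log2 fold change -0.69, limma adjusted p 0.0735). The groups of both genes did not overlap. Of 11 tested genes of the Notch pathway, which restrains neurogenesis, 2 were lower, beside 5.28% of all genes, and 0 higher, beside 2.97%, with 1 higher at an unadjusted limma p under 0.05 and 0 higher in edgeR and DESeq2. The 2 were the receptor gene Notch2, at 372 and 358 in the transgenic libraries, against 691 and 923 in wild-type, and the target gene Heyl, at 40.5 and 46.1 in the transgenic libraries, against 118 and 223 in wild-type. Their log2 fold changes were -1.13 and -1.88, and neither passed after the length correction, at -0.50 and -1.76 (limma adjusted p 0.146 and 0.0575). The Notch target Hes5, a readout of neural progenitors, was at most 6.4 in any library.

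Markers of the cell types around the ganglia were read beside these values. The 7 neuron markers, all of them among the 28 genes, summed to 743 and 541 normalized reads in Wnt1-Cre;pMes-Bmp4, against 902 and 680 in wild-type. Of the 7, 0 passed in limma, edgeR or DESeq2, beside 8.25% of all genes in limma. At an unadjusted limma p under 0.05 there were 0, beside 28.8% of all genes. All 7 had reads in every library. Per length, Tubb3 was at 118 normalized reads per kilobase in Wnt1-Cre;pMes-Bmp4 and 143 in wild-type, against 637 and 781 for Prrx1, a gene of arch mesenchyme. The 8 markers of glial crest, the other crest-derived part of the ganglia, summed to 1426 and 1665 in Wnt1-Cre;pMes-Bmp4, against 1416 and 1060 in wild-type. The crest and glial regulator Sox10 was at 97.1 and 61.8 in Wnt1-Cre;pMes-Bmp4, against 148 and 206 in wild-type, a difference that missed the threshold (log2 fold change -1.16, limma adjusted p 0.072).

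Neural tube markers summed to 1956 and 1438 in Wnt1-Cre;pMes-Bmp4, against 2440 and 2260 in wild-type. The neural progenitor gene Nes fell by 1.09 on the log2 scale (limma adjusted p 0.0459) and was at -0.74 after the length correction, where it did not pass. Otx2, Sox2, Pax6 and En2, the other 4 genes tested, did not pass. Otx2 was at 639 and 593 in Wnt1-Cre;pMes-Bmp4, against 734 and 521 in wild-type, and Sox2 at 527 and 349 in Wnt1-Cre;pMes-Bmp4, against 706 and 627 in wild-type, genes that arch epithelium or placodes can also express. Olig2 was at 0 in all 4 libraries, and En1, Nkx2-2, Nkx6-1, Hes5, Sox1 and Sox3 did not exceed 6.4 normalized reads. Otic markers summed to 109 and 64.3 in Wnt1-Cre;pMes-Bmp4, against 54.9 and 35.0 in wild-type, most of it Lmx1a, and Pax2, Pax8, Fbxo2 and Oc90 were near 0, with at most 14.5. Arch epithelium markers summed to 27109 and 25321 in Wnt1-Cre;pMes-Bmp4, against 19844 and 15038 in wild-type, and 2 of 6, Krt18 and Krt14, rose. Mesenchyme markers summed to 34044 and 24625 in Wnt1-Cre;pMes-Bmp4, against 23574 and 32560 in wild-type, with Prrx2 and Msx1 called higher and Barx1 lower among 7. Endothelial markers summed to 1839 and 1919 in Wnt1-Cre;pMes-Bmp4, against 1699 and 1660 in wild-type, with 0 of 4 called by limma, edgeR or DESeq2 and 2 at an unadjusted limma p under 0.05. Erythroid markers summed to 340385 and 380469 in Wnt1-Cre;pMes-Bmp4, against 673445 and 612685 in wild-type, with 2 of 5, Hbb-y and Hba-x, lower. Beside these counts, limma called 2.97% of all genes tested higher and 5.28% lower, and 28.8% had an unadjusted p under 0.05. After the length correction Krt18, Krt14, Prrx2, Msx1, Barx1 and Hbb-y did not pass either, with limma adjusted p from 0.0505 to 0.0974. Hba-x still passed (limma adjusted p 0.0485), beside 1.66% of all genes. The part of these cell types in the values of the neuron genes was not tested.

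**Figure D5:**
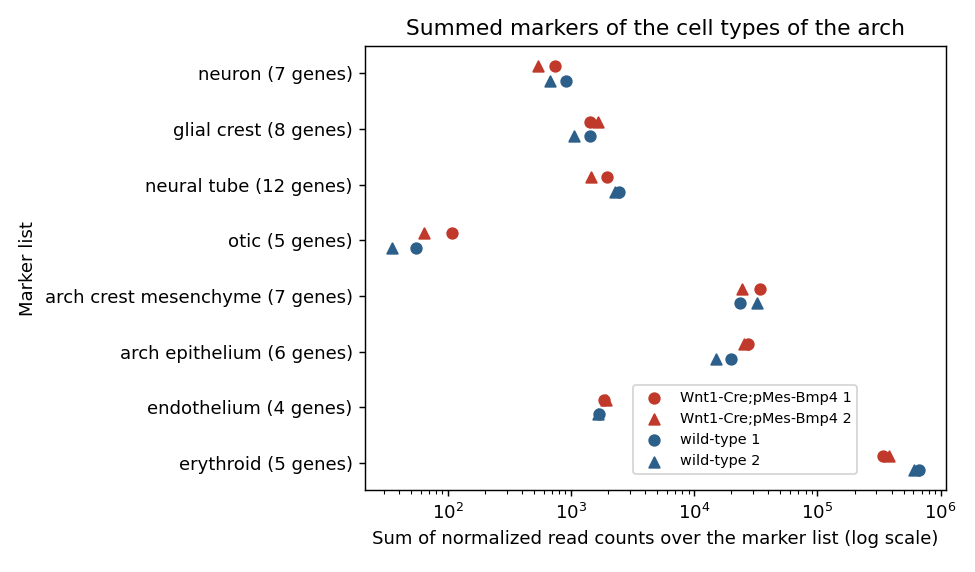
Sum of normalized read counts over each marker list (log axis) in the 2 Wnt1-Cre;pMes-Bmp4 (red) and 2 wild-type (blue) libraries. The neuron markers summed to 743 and 541 in Wnt1-Cre;pMes-Bmp4, against 902 and 680 in wild-type, and their groups overlapped.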

How the data were processed

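Arch RNA was polyA-selected and primed with random hexamers, per the labels' protocols. The values the authors deposited are a normalized signal: featureCounts reads per gene, per the file headers, divided by a size factor of the library. fastp 0.21.0 and mm10 are named by the submitters' processing notes. Aligner, annotation, strand setting and normalizing tool: not given in the sources used here. All values (100%) were whole reads, within 0.01, once divided by the lowest value above 0 of their library.

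Members and lists were chosen with earlier results of these data known. All genes of the list with a mean of at least 10 are described. From each other list the genes past the threshold are named, at most 6, or the 2 with the smallest p, with defining markers at or near 0. Values of some single genes that this rule would name are not reported here. The neurotrophin list, the marker genes Otx2, Sox2 and Sox10, and the crossed pairing were added after seeing the data.

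Differences, Wnt1-Cre;pMes-Bmp4 over wild-type, were tested by limma 3.58.1 (R 4.3.3, variance trend) on log2(value + 1), which understates the change of low genes. P values are two-sided and Benjamini-Hochberg adjusted over 16746 genes, with a threshold of 0.05. There were 2 residual and 5.26 prior degrees of freedom. An exact permutation test of 2 against 2 cannot go below 0.333. Alternatives were other pseudocounts, filters and scalings, limma without the trend, a replicate block, each library left out, a length correction, and edgeR 4.0.16 and DESeq2 1.42.0 on the recovered reads. GENCODE M21 on GRCm38, the assembly mm10 names, gave positions and the longest transcript (for 96.9% of genes tested). The length correction removed a spline with 4 degrees of freedom, estimated from genes with means of 50 or more. Promoters are from RefSeq. Simulations with 200 changed genes among 16746 recovered 34.1% of 2-fold and 78.2% of 4-fold changes, with 19 unchanged genes called (mean of 3 draws).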

Additional observations from a re-analysis of the deposited data

How the results depend on the processing

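Over all genes, 498 were higher and 884 lower as reported, 1234 and 1573 in DESeq2, 107 and 162 after the length correction, and 237 and 350 with that correction and the replicate block together. Limma without the trend called 0 and 0, with 3925 genes at an unadjusted p under 0.05, where edgeR called 409 and 915. With a library left out the calls ran from 0 to 2675 higher and from 0 to 2719 lower. Without wild-type replicate 1 they were 0 and 0, although 3185 genes had an unadjusted p under 0.05. Leaving out wild-type replicate 2 gave 1 and 0. With the replicate number as a block they were 165 and 543. The labels give these numbers no meaning. Across all genes tested, deviations of same-numbered libraries from their group means had a weak negative correlation (r = -0.147). In 14 of the 28 neuron genes replicate 1 exceeded replicate 2 in both genotypes, against 19.1% of all genes. The crossed pairing, added after seeing the data, gave 1763 and 1952, with 1 of the 28 neuron genes higher and 2 lower.

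Of the 28 neuron genes, 1 was higher as reported and 0 with TMM scaling, in edgeR and in limma without the trend, where Ntrk2 had adjusted p values of 0.0514, 0.059 and 0.17. With a library left out 0 to 2 were higher and 0 to 6 lower, and DESeq2 called 2 lower. The median log2 fold change stayed negative, from -0.44 to -0.05 with a library left out. Of 437 values of single genes, 20 changed sign and none of these was Ntrk2. With a library left out the log2 fold change ran from -1.77 to 0.028 for Cntn2, -0.998 to 0.064 for Dcx, -1.24 to 0.35 for Elavl3, -0.36 to 0.080 for Map2, -1.23 to 0.048 for Nefm, -0.67 to 0.13 for Neurod1, -1.11 to 0.56 for Neurog1, -0.33 to 0.39 for Nhlh2, -0.37 to 0.18 for Ntrk3, -0.011 to 1.11 for Stmn2 and -0.59 to 0.00078 for Tubb3. Nhlh2 was at -0.012 in edgeR, and Map2, Ntrk3 and Dcx were at 0.22, 0.71 and 0.096 after the length correction, with or without the block. The causes were not tested. Of the 28 genes, 17 had a mean under 100 normalized reads, and the part of depth in their spread was not tested.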
